A study of Mus musculus with 6 samples.

Results

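The 36 immediate early genes described here were picked by symbol from the 32285 genes of the count matrices of 6 single cell RNA libraries of mouse dorsal skin. The rule reads no measured value, but the genes were chosen with earlier results of these data known. All 36 symbols were found. Each library pooled cells of 2 adult male wildtype FVB mice (p55-57), whose back skin was shaved and waxed to start hair regrowth. Skin was taken at 0 h, at 4 h and 16 h, and at 2 d, 4 d and 6 d after waxing, digested with enzymes separately for each mouse, mixed at equal cell numbers and run on the 10x Genomics 3′ kit. All 6 groups share the strain, sex and genotype, and the 0 h library stands as the starting point. The study's methods describe trypsin alone for resting skin, and collagenase and hyaluronidase before trypsin for skin in hair growth. Which of these each library received is not given in the sources used here, so where the digestion differed, it and the time after waxing cannot be told apart. With 1 library per time point, time after waxing and library cannot be told apart, and no p is given between single time points.

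Immediate early genes are transcribed within minutes of a signal, from preformed transcription factors and without new protein synthesis. Growth factors, wounding, stretch and stress reach them through the MAP kinases, serum response factor and CREB. Many encode transcription factors (the Fos, Jun, Egr, Nr4a and Klf families), and others shut the signal down: Dusp proteins dephosphorylate MAP kinases, Zfp36 proteins mark short lived mRNAs for decay, and Socs3 blocks cytokine receptors. In skin, Fos and Jun proteins form the AP-1 dimers that control keratinocyte growth and differentiation, and Klf4 is needed for the epidermal barrier. Preparing a cell suspension from tissue is itself known to induce these genes.

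Some of the control elements through which these genes are switched on can be read in their promoters. RefSeq promoter windows on GRCm38.p6, from 250 bases before to 50 bases after a start site, were found for 28 of the 36 genes, in 37 windows of 32851. The CArG box, where serum response factor binds, stood in 6 of the 37 windows (16.2%, 3 genes) and in 1.63% of all windows. Most of these 6 windows are of Egr2, several of them overlapping around the same box, so this share counts 1 gene repeatedly. By gene the box was found in 3 of 28, and no share by gene was taken over all genes. The cAMP response element TGACGTCA, where CREB and ATF proteins bind, stood in 3 windows (8.11%) and in 1.79% of all windows. The AP-1 site, TGA and TCA with a C or G between them, was found in 1 window (2.7%, Csrnp1, against 5.2% of all windows). The NF-kB site was found in 7 windows (18.9%, against 8.46%). Both strands were searched, and the CArG and NF-kB motifs are degenerate, so they are given by name. The 6 stretches of 90 bases below show the 3 genes with a CArG box and the 3 with the cAMP response element, 5′ to 3′ on the strand of the gene, with the matched letters in capitals.
Egr2, chr10:67537759-67537848, plus strand: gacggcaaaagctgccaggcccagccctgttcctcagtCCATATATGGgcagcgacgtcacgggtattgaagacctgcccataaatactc
Dusp5, chr19:53529035-53529124, plus strand: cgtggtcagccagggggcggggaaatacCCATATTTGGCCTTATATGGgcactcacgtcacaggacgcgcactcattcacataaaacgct
Zfp36, chr7:28379249-28379338, minus strand: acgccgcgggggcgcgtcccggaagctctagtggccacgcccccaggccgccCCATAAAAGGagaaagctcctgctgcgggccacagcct
Dusp1, chr17:26508563-26508652, minus strand: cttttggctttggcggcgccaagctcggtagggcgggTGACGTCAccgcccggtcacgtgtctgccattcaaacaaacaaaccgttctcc
Btg2, chr1:134079266-134079355, minus strand: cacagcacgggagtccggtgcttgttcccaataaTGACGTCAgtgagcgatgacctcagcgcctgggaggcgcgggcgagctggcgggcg
Maff, chr15:79347430-79347519, plus strand: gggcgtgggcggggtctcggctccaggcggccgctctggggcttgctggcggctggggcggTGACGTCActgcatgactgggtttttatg
In Dusp5 the capitals hold 2 CArG boxes end to end, beginning 82 and 72 bases before the start site, and in Egr2 the box begins 72 bases before one of several listed starts. A match describes the letters only, and no binding was measured.

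The libraries held 72634390 to 112370376 unique molecular identifiers (UMIs, each a counted mRNA molecule) in 7307 to 13878 barcodes, and 49974 of 61031 barcodes were kept as cells, at a median of 6009 to 10521.5 UMIs per cell. Pairs of libraries shared 7 to 47 barcode sequences. Cells were clustered without the 36 genes, and clusters were named by markers: basal and suprabasal interfollicular epidermis (IFE.B and IFE.SB), basal and suprabasal upper hair follicle (uHF.B and uHF.SB), outer bulge (OB, the stem cells of the resting follicle), T cells, Langerhans cells, melanocytes, and a cluster led by Krt28, Krt25, Krt71 and Col14a1. The last met the markers of inner root sheath (IRS) and matrix, but the name does not hold for most of its 3954 cells, and it is called the Krt28/Col14a1 cluster here. The 9 IRS and matrix markers made up 0.0109% to 0.0147% of its UMIs at 0 h to 2 d and 0.108% to 0.12% at 4 d and 6 d. At resolution 0.4, 19.7% of its cells (780) lay in a cluster led by Krt28 and Krt25 that met the IRS and matrix markers. Another 80.2% (3170) lay in a cluster led by Col14a1 and Basp1 that met OB markers. A second cluster that met the OB markers, OB 2, was led by Pinlyp and Krt75. The 4 h library stood apart over all genes, with 42.1% of the 6338 genes tested in IFE.B at their highest and 31.8% at their lowest there.

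The 36 genes together made up 3.77% of all UMIs of IFE.B cells at 0 h, and 2.2%, 2.35%, 2.13%, 3.27% and 2.33% in the 5 later libraries, in order of time. In OB the share was 4.62% at 0 h and then 2.02%, 1.88%, 1.61%, 2.17% and 2.13%. In uHF.B it was 4.27% at 0 h and then 1.64%, 1.46%, 1.3%, 1.93% and 1.56%. All 3 basal clusters therefore had their highest share in the 0 h library, and IFE.B came near that level again at 4 d. In T cells the share was 2.32%, 2.16% and 2.36% in the first 3 libraries and 1.72%, 1.62% and 1.51% in the last 3. Melanocytes had 1.71% at 0 h, 3.03% and 2.9% at 4 h and 16 h, and 0.555%, 0.645% and 0.862% from 2 d on. The 13 heat shock and dissociation response genes, counted beside these sums, took 0.95% of IFE.B UMIs at 0 h, 0.869% at 4 h and 0.597% at 2 d, and in OB 1.19% at 0 h, 1.72% at 4 h and 0.732% at 2 d. Their part in the levels of the 36 genes was not tested. Nor was that of the digestion, which is not given by library. The sums are shares of all UMIs, so less of these mRNAs and more of other mRNAs cannot be told apart.

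**Figure D1:**
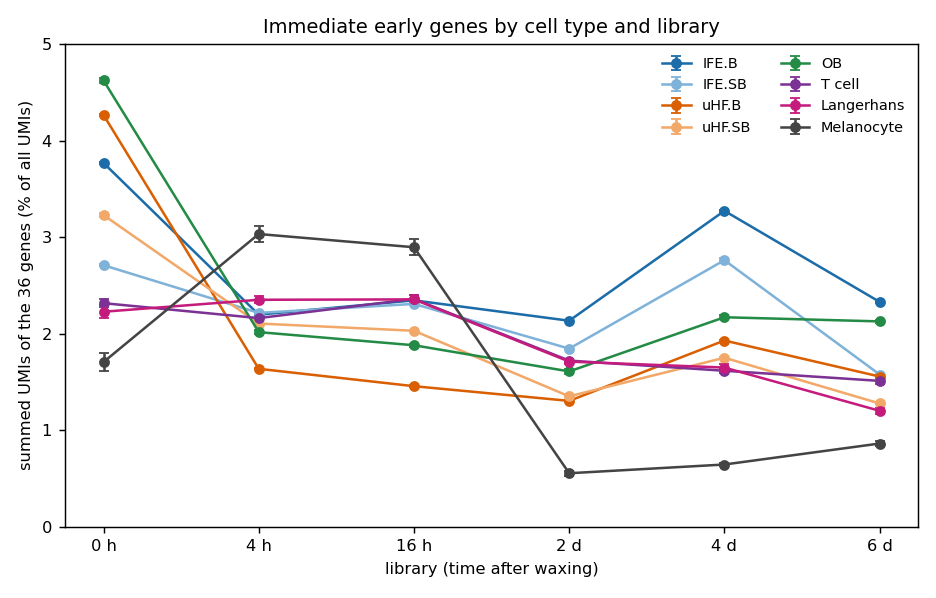
Summed UMIs of the 36 genes as percent of all UMIs (y axis) in each library (x axis, time after waxing), 1 line per cell type, with exact 95% Poisson intervals that cover counting error only. OB, uHF.B and IFE.B are highest at 0 h (4.62%, 4.27% and 3.77%), while melanocytes are highest at 4 h (3.03%).

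Gene by gene, 30 of the 34 immediate early genes with enough counts in uHF.B were at their highest in the 0 h library (all genes: 16.9%). The same held for 26 of 34 in OB (12.4%), 23 of 33 in uHF.SB (17.8%), 19 of 33 in IFE.B (14.9%) and 11 of 33 in IFE.SB (13.0%). In IFE.SB 2, a second suprabasal cluster led by the cornified envelope genes Lce1m and Lce1b, 3 of 32 were highest at 0 h (14.1%), and in T cells 10 of 29 (12.7%). In melanocytes 11 of 35 were highest there (24.9%). In each of the 5 follicular and epidermal clusters named first the share of the immediate early genes was above that of all genes. It was above in T cells and melanocytes as well. The same held in OB 2 (17 of 35, 14.1%), the Krt28/Col14a1 cluster (27 of 34, 17.7%) and Langerhans cells (13 of 34, 21.8%). In IFE.SB 2 the share was below that of all genes.

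From 0 h to 4 h, counting a difference of at least 2-fold among genes with at least 20 CPM (counts per 1e6 UMIs) in 1 of the 2 libraries, 25 of 34 immediate early genes were lower in uHF.B, against 15.5% of all genes. In OB 16 of 34 were lower (18.5%) and 3 were higher (21.0%), namely Fosl1, Dusp5 and Dusp10. The count of 3 was 0 at clustering resolution 0.4 and 1 with doublets kept, but there the largest cluster named OB held other cells. At resolution 0.4 99.8% of the OB cells lay in a second cluster of that name, and with doublets kept they made up 37.9% of the cluster. In IFE.B 14 of 32 were lower (15.4%) and none higher (21.8%), in uHF.SB 12 of 33 (11.8%), and in IFE.SB 10 of 32 (11.2%). The median log2 difference of the immediate early genes tested was -0.94 in IFE.B, -1.39 in uHF.B and -0.91 in OB, beside 0.24, 0.26 and 0.13 for all genes tested. Since the 4 h library stood apart, the 16 h library was set against 0 h in its place, and 28 of 34 were lower in uHF.B (9.89%), 19 of 33 in OB (8.50%) and 9 of 33 in IFE.B (4.90%). The counts for IFE.SB, T cells and Langerhans cells were smaller by more than 1.5 times under some alternatives, as low as 3, 1 and 4.

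Among the AP-1 and Maf genes, Fos, the archetype of the class, stood at 8278 CPM in OB at 0 h and at 3017, 2323, 1903, 3602 and 2430 CPM in the 5 later libraries. Its close relative Fosb stood at 3427, 1476, 918, 544, 718 and 373 CPM in the same order, and Jun, the main partner of Fos, at 4790, 2049, 1936, 1494, 2346 and 2205 CPM. All 3 were highest at 0 h, and the 95% counting interval of Fos at 0 h, 8151 to 8406 CPM, lay above every later value. Atf3, a stress induced bZIP factor, stood at 4980, 988, 1536, 1032, 1341 and 1968 CPM, so that the 4 h level was 0.198 of the 0 h level (95% interval 0.19 to 0.207). In uHF.B the Atf3 levels were 5015 CPM at 0 h and 364 CPM at 4 h, a ratio of 0.0726. IFE.B showed less of this: Fos was at 5961, 4406, 3519, 3596, 4935 and 3691 CPM, and Atf3 was back at 4209 CPM at 4 d after 1563 CPM at 4 h.

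Fosl1, which encodes Fra-1, an AP-1 protein of migrating and wound edge keratinocytes, was highest in OB in the 4 h library. In OB it stood at 98.7, 459, 99.9, 107, 15.8 and 95 CPM over the 6 libraries in order. The 4 h level was 4.65 times that at 0 h (95% interval 4 to 5.43), and Fosl1 had a ratio of 29 between its highest and lowest library, the widest of all immediate early genes over 50 CPM in OB or IFE.B. In the cluster that held 99.8% of the OB cells at resolution 0.4, Fosl1 was at 97.5 CPM at 0 h and 458 CPM at 4 h. OB markers made up 0.394% of OB UMIs at 0 h and 0.122% at 4 h, and IFE.B markers 0.945% and 1.78%, and their part in the Fosl1 level was not tested. With every cell thinned to 2000 UMIs, 11.7% of OB cells had a Fosl1 UMI at 0 h and 49.2% at 4 h (67.6% before thinning), while 0.939% of T cells did at 4 h (1.17% before thinning). The median depth was 5011 UMIs per OB cell and 2188.5 per T cell. In IFE.B Fosl1 stayed between 276 CPM at 6 d and 495 CPM at 2 d. At resolution 0.4, looked at after the other results, IFE.B fell mostly into a cluster of 10639 and one of 5726 cells, the second led by Mmp3, Epgn and Nrg1. Fosl1, which took no part in the clustering, spanned 59.7 to 274 CPM in the larger and 403 to 903 CPM in the smaller cluster, so that the ranges did not overlap. Fosl2, a further Fos relative, and Maff, a small Maf without an activation domain, had lower levels. Fosl2 in IFE.B stood at 72.9, 14.1, 54.1, 59.9, 64.9 and 52.9 CPM, and Maff in OB at 120.0, 88.1, 48.4, 33.9, 19.8 and 51.7 CPM. Fosl2 was thus low in the 4 h library alone, and Maff was lowest at 4 d. Junb and Jund, the other genes of the Jun family, spanned 1161 to 3408 and 1365 to 2964 CPM in OB, both with their highest value at 0 h.

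**Figure D2:**
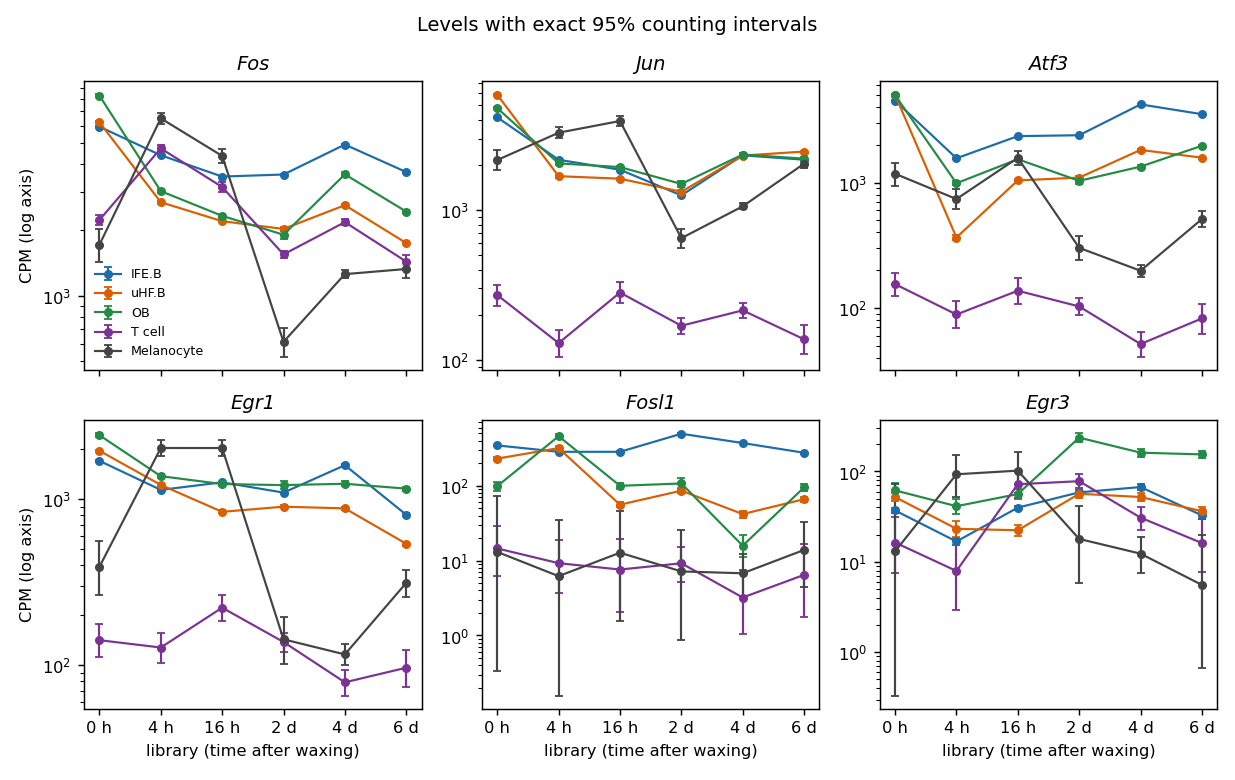
Levels of 6 genes (y axis, CPM on a log axis) in the 6 libraries (x axis) for 5 cell types, with exact 95% counting intervals. Fos, Jun, Atf3 and Egr1 start high in OB, uHF.B and IFE.B and melanocytes peak at 4 h or 16 h, Fosl1 in OB peaks at 4 h (459 CPM) and Egr3 in OB at 2 d (237 CPM).

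The 3 Egr genes, zinc finger factors that couple growth signals to transcription, differed in time. Egr1 in OB stood at 2431, 1378, 1235, 1217, 1240 and 1159 CPM, with the 0 h library above all others. Egr3 stood at 61.8, 41.3, 56.2, 237, 161 and 154 CPM and Egr2 at 49.1, 25, 30.2, 93.9, 125 and 77.3 CPM, so that both were at their highest from 2 d on, when Egr1 was low. From 16 h to 2 d Egr3 differed 4.21-fold (95% interval 3.54 to 5.01) and Egr2 3.11-fold (2.4 to 4.02). The 2 d library had the highest median share of mitochondrial UMIs, 4.69% per cell against 2.51% to 3.64% in the others, with 3532 of its 8459 cells over 5%. In OB the 8 mitochondrial transcripts took 3.33% of UMIs at 16 h and 5.21% at 2 d. With cells of at most 5% mitochondrial UMIs only, which left 85 OB cells at 2 d, Egr3 was at 57.1 CPM at 16 h and 315 CPM at 2 d, and Egr2 at 28.7 and 124.5 CPM. In that step 5 of 33 immediate early genes were at least 2-fold higher in OB (6.81% of all genes), the others being Fosl2, Nr4a2 and Nr4a3, but 1 was with each library clustered on its own and 3 with a floor of 50 CPM. At resolution 0.4 none was in the largest cluster named OB, while in the cluster that held 99.8% of the OB cells Egr3 was at 55.2 CPM at 16 h and 238.5 CPM at 2 d.

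Of the Nr4a genes, orphan nuclear receptors, Nr4a1 in OB stood at 408, 146, 210, 228, 275 and 266 CPM, and Nr4a2 and Nr4a3 were lower. Nr4a2 in OB stood at 63.3, 55.8, 19.1, 43.4, 16.3 and 8.2 CPM, and Nr4a3 stayed at or under 30 CPM in OB. In T cells Nr4a2 stood at 855, 366, 584, 598, 212 and 545 CPM and Nr4a3 at 733, 314, 388, 554, 142 and 349 CPM. The lowest T cell library thus lay above the highest OB library for both.

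Of the Klf genes, Klf2 in OB stood at 170, 36.8, 59.3, 31.6, 46.2 and 11.9 CPM, a ratio of 14.2 between 0 h and 6 d. Klf4 stood at 2520, 1411, 1035, 803, 594 and 513 CPM, each library below the one before it in time. Klf6 stood at 983, 597, 763, 346, 215 and 299 CPM and Klf10, induced by TGF-beta, at 142, 85.7, 64.7, 78.1, 31.7 and 117 CPM. All 4 were highest at 0 h in OB. Csrnp1, a nuclear factor induced by axin, stood at 206, 79.4, 65.4, 91.5, 36.9 and 93.5 CPM. Myc stood at 182, 113, 90.5, 103, 51 and 99.7 CPM in OB and at 235, 65.2, 98.9, 117, 93 and 153 CPM in IFE.B, with its highest level at 0 h in both.

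Among the phosphatases, Dusp1, which switches off p38 and JNK, was the most abundant of the 5 in IFE.B and OB. In OB it stood at 1330, 797, 522, 320, 463 and 507 CPM. In IFE.B it stood at 1569, 2086, 1806, 1465, 1968 and 997 CPM, and so was 1.33 times as high at 4 h as at 0 h (95% interval 1.31 to 1.35) in the library in which Fos, Jun and Atf3 were lower than at 0 h. Dusp5, which acts on nuclear ERK, stood at 29.9 CPM at 0 h and 74.9 CPM at 4 h in OB, and at 19.8 to 35.5 CPM later. Dusp10 was at 23.2 CPM at 4 h in OB and at 3.52 to 15.1 CPM elsewhere, Dusp2 reached 12.9 CPM in IFE.B, and Dusp4 did not pass 2.03 CPM in IFE.B or OB. In melanocytes Dusp4, a nuclear phosphatase of ERK, stood at 52.3, 31, 25.5, 35.9, 61 and 66.7 CPM.

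Of the genes of mRNA decay, growth arrest and feedback, Socs3 in OB stood at 1024, 199, 244, 227, 358 and 395 CPM. In IFE.B, Ier3, which prolongs ERK signaling, stood at 324, 35.8, 114, 271, 250 and 343 CPM, Zfp36l1 at 435, 105, 236, 337, 271 and 337 CPM, and Nfkbiz, an atypical NF-kB cofactor, at 290, 65.9, 109, 218, 74 and 154 CPM. These 4 were all low in the 4 h library, at 0.194, 0.111, 0.241 and 0.227 of their 0 h level. Btg2, an antiproliferative gene and target of p53, stood at 1196, 413, 909, 648, 2063 and 1055 CPM in IFE.B, with its highest value at 4 d and not at 0 h. Among the other members of the group in IFE.B, Zfp36 spanned 598 to 1616 CPM, Ier2 666 to 1849 CPM, Btg1 186 to 605 CPM, Ier5 44 to 179 CPM and the small GTPase gene Rhob 58 to 132 CPM.

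**Figure D3:**
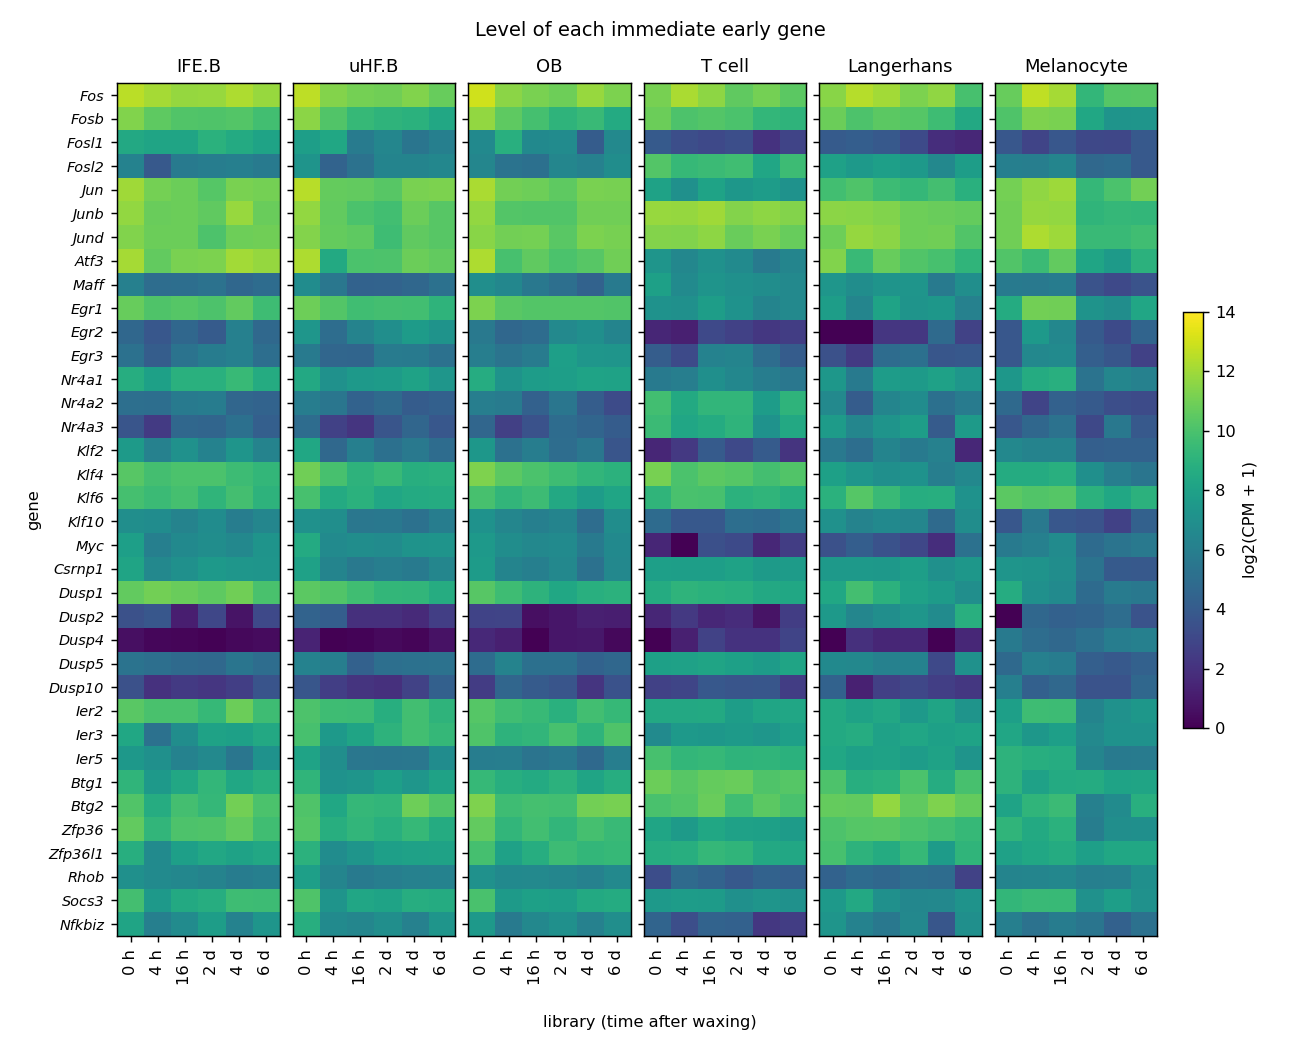
Level of each of the 36 genes (rows, grouped by role) in the 6 libraries (columns) of 6 cell types, as log2(CPM + 1). The 0 h column is bright in IFE.B, uHF.B and OB, the 4 h and 16 h columns in melanocytes, and Dusp4 is dark in all keratinocytes.

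In IFE.B the levels at 16 h and 4 d were partly above those of the libraries before. From 4 h to 16 h 6 of 33 immediate early genes were at least 2-fold higher in IFE.B (13.1% of all genes), a count that was 3 with DESeq2 size factors and 3 at resolution 0.4. From 2 d to 4 d 5 of 33 were higher (2.13%): Egr2 (4.37-fold), Btg2 (3.19-fold), Ier2 (2.78-fold), Junb (2.43-fold) and Klf2 (2.15-fold), and at resolution 0.4 3 were. In the same step 3 were at least 2-fold lower in IFE.B (1.52% of all genes), namely Nr4a2, Ier5 and Nfkbiz. Junb stood at 3388, 1768, 1821, 1513, 3672 and 1808 CPM, its highest level being at 4 d. Btg2 was also at least 2-fold higher in that step in uHF.B and OB, and Junb in uHF.B. In OB no other of these genes was higher, and 5 were lower (1.8% of all genes): Fosl1, Nr4a2, Klf10, Myc and Csrnp1. In uHF.B Fosl1 was lower.

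T cells and Langerhans cells, the resident immune cells of the epidermis, did not have their highest summed level clearly at 0 h. From 0 h to 4 h 7 of 28 genes were lower in T cells (7.29%) and 2 were higher (19.3%), Fos and Rhob, and Fos stood at 2224, 4740, 3151, 1546, 2174 and 1433 CPM. In Langerhans cells 9 of 31 were lower (15.3%) and 2 higher (15.9%), Klf6 and Dusp1, and Fos stood at 2947, 5571, 4234, 2445, 3333 and 985 CPM. Fos was therefore highest at 4 h in both, in the library in which it was 0.364 of the 0 h level in OB. This peak was not limited to immune cells, as Fos was also highest at 4 h in IFE.SB, IFE.SB 2 and melanocytes. T cell markers made up 1.56% to 2.42% of T cell UMIs, while the 6 IFE.B markers made up 0.0538% to 0.128%.

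Melanocytes, the pigment cells of the follicle, followed another course, on 29, 88, 77, 49, 269 and 63 cells. Fos stood at 1712, 6510, 4376, 613, 1255 and 1325 CPM, Egr1 at 392, 2036, 2035, 143.5, 116 and 314 CPM, and Fosb at 1150, 2476, 2334, 323, 151 and 158 CPM. These genes were high at 4 h and 16 h and low from 2 d on, with 0 h between. From 0 h to 4 h 9 of 35 genes were higher (10.5%), a count that was 5 with doublets kept and 5 when each library was clustered on its own. From 16 h to 2 d 27 of 33 were lower (23.9%), with Egr1 at 0.0705 and Fos at 0.14 of the earlier level. Over the same libraries the 7 melanocyte markers made up 0.418%, 0.576%, 0.507%, 1.12%, 2.88% and 2.32% of UMIs and the 6 IFE.B markers 0.356%, 0.0875%, 0.178%, 0.0682%, 0.0814% and 0.072%, and their part in these differences was not tested.

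In the Krt28/Col14a1 cluster, with 51 cells at 0 h and 2565 at 4 d, Fos stood at 7004, 4211, 3075, 1488, 1525 and 2769 CPM. From 4 d to 6 d 20 of 30 genes were at least 2-fold higher (4.52% of all genes). Fosl1 stood at 5.64 CPM at 4 d and 85.4 CPM at 6 d, a 15.1-fold ratio, and Myc at 11.5 and 73 CPM. At resolution 0.4, looked at after the other results, the difference lay in the Col14a1-led cells, 1962 at 4 d and 810 at 6 d. There Fosl1 was at 6.89 CPM at 4 d and 104 CPM at 6 d, Fos at 1865 and 3314 CPM, Atf3 at 561 and 2127 CPM, and the 36 genes together at 0.924% and 1.95% of UMIs. In the Krt28-led cells, 602 at 4 d and 133 at 6 d, Fosl1 was at 2.38 and 0.859 CPM, Fos at 627 and 316 CPM, Atf3 at 221 and 216 CPM, and the sum at 0.421% and 0.349%. The 2 kinds of cells thus went apart in this step, and the values of the whole cluster describe neither. In the whole cluster the 13 heat shock and dissociation genes went from 0.758% to 1.07% of UMIs in the same step, and their part was not tested.

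To ask whether a smooth course over the 6 libraries could be told from the scatter around it, a spline of hours was fitted to the summed counts of 11 cell types with edgeR. It leaves 2 residual degrees of freedom, which bounds what it can call. In 8 of the 11 cell types no immediate early gene passed a Benjamini-Hochberg adjusted p of 0.05 (0 to 8 genes at an unadjusted p under 0.05, 0 to 4 with the DESeq2 likelihood ratio test). This was not particular to these genes. Among all genes none was called in IFE.B, IFE.SB, IFE.SB 2, OB, uHF.B or uHF.SB, 1 was in Langerhans cells and 4 were in T cells. Of these 8 cell types, OB had 7 immediate early genes called without the 0 h library and 2 without 4 h, Langerhans cells 7 without 0 h, and uHF.B 6 without 4 h. In melanocytes 11 of 30 were called (4.37% of all genes), each with a falling linear part. They were Ier5, Klf4, Csrnp1, Fosb, Dusp1, Egr2, Egr1, Zfp36, Btg2, Socs3 and Atf3. A falling linear part does not mean a steady fall, since Fosb and Egr1 were higher at 4 h than at 0 h. The linear part of Fosb was -4.11 on the log2 scale (edgeR adjusted p = 0.000614) and that of Ier5 was -3.51 (edgeR adjusted p = 0.000144). Without the 16 h library 7 were called there, with at least 10 counts in every sum 4, with a linear trend 5, and with log2(hours + 1) or the rank of the time point 20. With log2(hours + 1) 602 of all 4100 genes tested in melanocytes were called. In the Krt28/Col14a1 cluster, whose 2 kinds of cells are mixed in it, 6 of 35 were called (1.39%), each with a falling linear part. They were Klf2, Fosb, Socs3, Klf6, Klf4 and Nr4a2, and Klf2 had a linear part of -4.99 (edgeR adjusted p = 0.00691). The count there was 30 without the 0 h library, 28 without 4 h, 15 without 2 d and 21 without 6 d. It was 0 with a linear trend, 12 with log2(hours + 1) (371 of all 9766 genes), 16 with the rank, 14 with at least 10 counts in every sum and 20 with DESeq2. In OB 2 Fosb and Klf2 were called, 2 of 35 (1.22%), but 17 were without the 0 h library, 14 without 4 h and 4 or 5 without any other. There log2(hours + 1) gave 14 (473 of all 8532 genes), the rank 6, a linear trend 1, the 10 count filter 5 and DESeq2 7. With time as log2(hours + 1), which spreads out the early libraries, 19 of 35 were called in OB (19.5% of all genes), 16 with a falling and 3 with a rising linear part. The 3 were Egr2, Egr3 and Nr4a3.

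Differences between cell types could be tested, since every library holds them side by side. With library as a block, 20 of 36 genes differed between OB and IFE.B, 4 higher (17.8% of all genes) and 16 lower in OB (18.2%). This contrast is taken over the 6 libraries, and the summed share of the 36 genes went the other way at 0 h. It was 4.62% in OB and 3.77% in IFE.B at 0 h, and 2.02% and 2.2% at 4 h. In every later library, too, OB was below IFE.B. Fos, called lower in OB, was higher there than in IFE.B at 0 h. Dusp1 was lower in all 6 libraries, with a median of 515 CPM in OB and 1687 in IFE.B (log2 difference -1.70 ± 0.27 SE, edgeR adjusted p = 0.00146). Ier3 was higher in all 6, with a median of 783 against 261 CPM (log2 1.85 ± 0.34, edgeR adjusted p = 0.00306). Egr3 (log2 1.10), Egr2 (0.97) and Zfp36l1 were the other genes higher in OB, and Fosl1 (-2), Klf2 (-1.53), Dusp2 (-1.53), Ier5 (-1.31), Csrnp1 (-1.15), Nr4a1 (-1.06) and Atf3 (-1.05) were among the lower ones. The difference in Fosl1 did not hold at 4 h, where 49.2% of thinned OB cells and 38.5% of thinned IFE.B cells had a Fosl1 UMI. Without the library block, which leaves the differences between libraries in the error, 4 genes were called here, and 2, 2, 0 and 2 in the contrasts of IFE.SB with IFE.B, uHF.SB with uHF.B, OB with uHF.B and uHF.B with IFE.B.

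In the upper follicle, too, more genes were lower than higher over the 6 libraries. At 0 h, however, the summed share of the 36 genes given above was higher in uHF.B than in IFE.B. It was lower in uHF.B in each later library. Between uHF.B and IFE.B, 18 of 35 were lower in uHF.B (19.8%) and 2 were higher (16.0%), Egr2 (median 133 against 24.9 CPM, log2 2.00 ± 0.24, edgeR adjusted p = 0.000374) and Ier3 (log2 1.37 ± 0.20, edgeR adjusted p = 0.000818). Fosl1 (-1.88), Atf3 (-1.22), Dusp1 (-1.17), Nr4a1 (-1.17), Csrnp1 (-1.10), Klf2 (-1.09), Zfp36 (-1.01) and Fosb (-0.90) were lower. At 4 h the shares of thinned cells with a Fosl1 UMI were close, 40.1% in uHF.B and 38.5% in IFE.B. OB and uHF.B, set against each other, differed in 12 of 35 genes, 7 higher (17.6%) and 5 lower (20%) in OB. Egr3 (log2 1.23), Zfp36l1 (1.13), Btg1, Btg2, Jund, Zfp36 and Egr1 were higher in OB, and Dusp2, Egr2 (-1.05), Ier5, Myc (-0.72) and Dusp1 were lower. Egr2 and Egr3, which share their late timing in OB, thus lay on opposite sides of this contrast.

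Suprabasal cells, which have left the basal layer to differentiate, differed from basal cells in both directions. Between IFE.SB and IFE.B 11 of 35 were higher (27.2%) and 11 lower (28.0%), shares close to those of all genes. Between uHF.SB and uHF.B 12 of 36 were higher (28.9%) and 5 lower (30.7%). Egr3 was higher in all 6 libraries in both, by 1.49 ± 0.23 (edgeR adjusted p = 0.00107) and 1.42 ± 0.29 (edgeR adjusted p = 0.00496) on the log2 scale, as was Dusp5 by 0.87 and 1.19. Klf4 was higher in uHF.SB by 0.95 ± 0.15 (edgeR adjusted p = 0.000619), with a median of 1206 against 610 CPM. Ier3, Dusp2, Socs3 and Nr4a1 were lower in the suprabasal cells of both compartments.

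**Figure D4:**
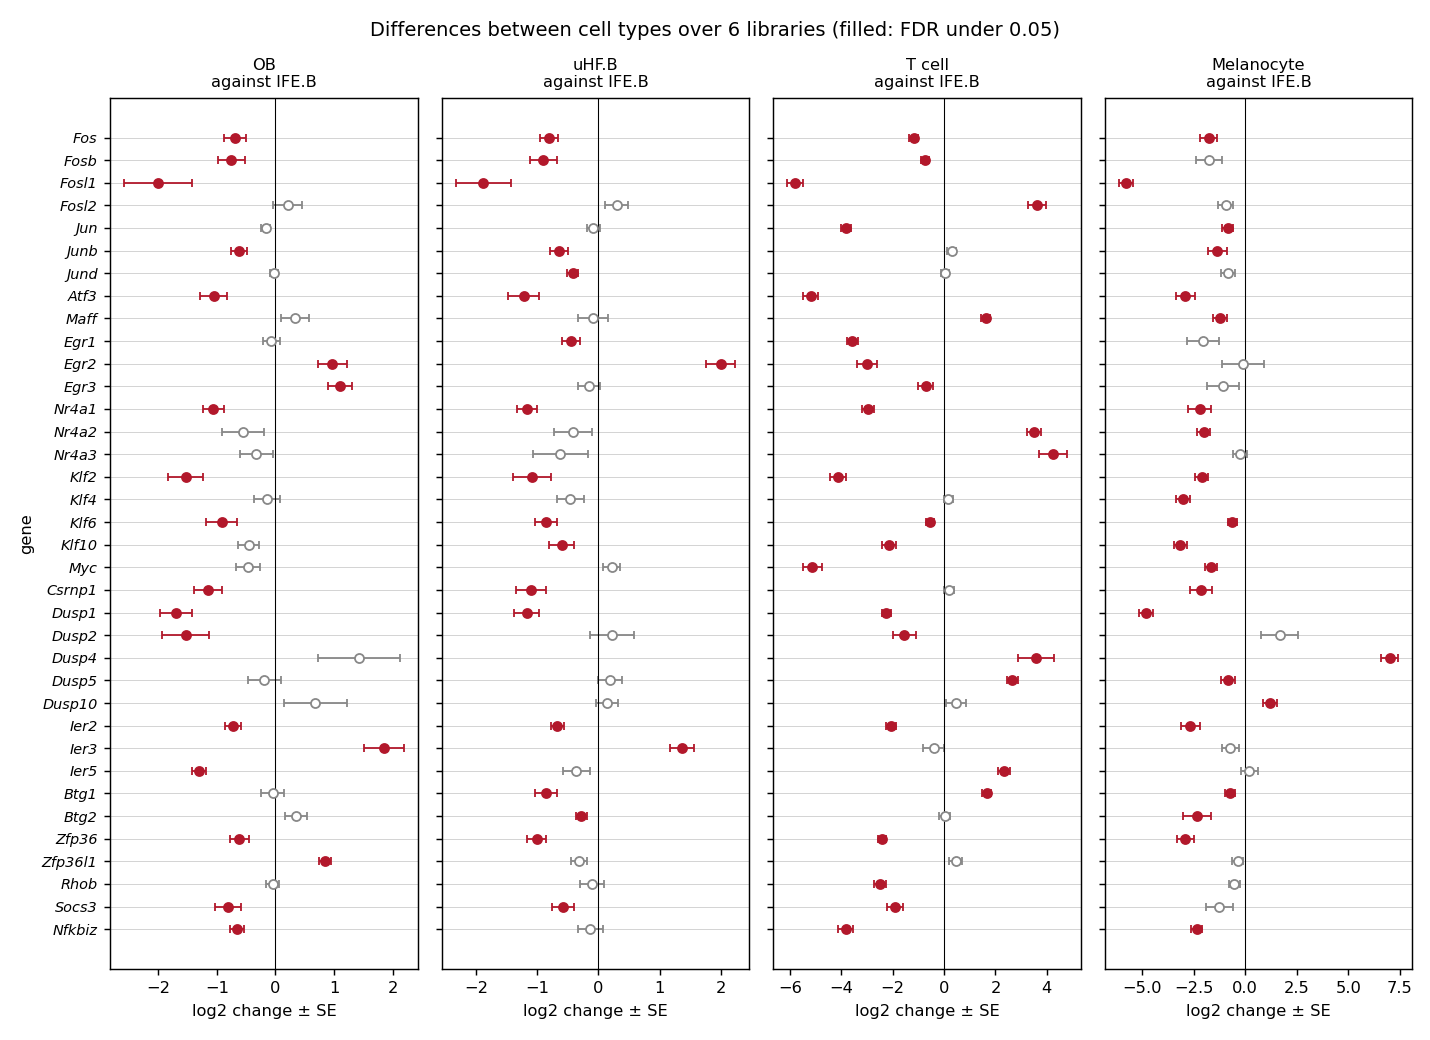
Log2 difference between cell types over the 6 libraries (x axis, scale differs between panels, ± SE) for each of the 36 genes that was tested (rows; Dusp4 was not tested in uHF.B), with filled points past an adjusted p of 0.05 in edgeR with library as block. Most filled points lie left of 0 in OB and uHF.B, while T cells have Nr4a2, Nr4a3 and Fosl2 far to the right and melanocytes have Dusp4 there (7.01).

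T cells differed from IFE.B in most of the genes. Against IFE.B 8 of 36 were higher (26.1%) and 20 lower (33.4%). Fosl2 had a median of 760 CPM in T cells and 57 in IFE.B (log2 3.60 ± 0.35, edgeR adjusted p = 1.66e-06), and Nr4a3 of 368 against 20.4 CPM (log2 4.23 ± 0.55, edgeR adjusted p = 9.13e-05). Fosl1 (-5.80), Atf3 (-5.19), Myc (-5.12), Klf2 (-4.13), Nfkbiz (-3.83), Jun (-3.81) and Egr1 (-3.57) were lower, and the highest T cell library of Jun, 281 CPM, lay below the lowest IFE.B library, 1253 CPM. Junb and Jund showed no such gap, with T cell levels of 2740 to 4029 and 1693 to 3204 CPM. Dusp4 was called higher (3.59), at a median of 3.14 CPM.

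Langerhans cells, set against T cells, were higher in 12 of 32 genes (25.7%) and lower in 9 (26.4%). Dusp2 had a median of 140 CPM in Langerhans cells and 2.18 in T cells (log2 6.19 ± 0.27, edgeR adjusted p = 3.02e-12), and Atf3 of 1082 against 95.6 CPM (log2 3.71 ± 0.18, edgeR adjusted p = 9.32e-12). Klf4 (-3.18), Nr4a2 (-2.91) and Fosl2 (-1.77) were lower in Langerhans cells, and Klf2, Nfkbiz, Zfp36, Jun and Klf10 were higher. With at least 10 counts asked of every sum the T cell, Langerhans and melanocyte contrasts called 18, 13 and 10 genes. In melanocytes 2 of 36 were higher than in IFE.B (15.8%) and 21 lower (23.6%). The 2 were Dusp4, with a median of 44.1 against 0.217 CPM (log2 7.01 ± 0.43, edgeR adjusted p = 2.21e-14), and Dusp10. Dusp4 rests on few UMIs in IFE.B, and in melanocytes at 0 h, 4 h and 16 h. Dusp1, the phosphatase that led in IFE.B, was lower in melanocytes by a log2 difference of -4.81 ± 0.35 (edgeR adjusted p = 4.2e-10). Fosl1 was lower by a log2 difference of -5.79, as were Klf10 (-3.15), Klf4 (-3.02), Zfp36 and Atf3 (both -2.91).

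Cells of 1 cluster differed in how many of these transcripts they held. At 2000 UMIs per cell, the median IFE.B cell had 76 UMIs of the 36 genes at 0 h and 43, 49, 42, 66 and 49 in the later libraries. The median OB cell had 94 at 0 h and 27, 29, 20, 36 and 33 later. OB cells were unequal after 0 h: at 4 h the lower quartile was 14 UMIs and the 95th percentile 108, while at 0 h those values were 51 and 169. The tenth of OB cells with the most held 29.9% of the UMIs of the 36 genes at 4 h and 19.3% at 0 h. Over the 2961 thinned IFE.B cells at 0 h, Fos went with Atf3 (Pearson r = 0.65) and with Jun (r = 0.64), against a median r of 0.12 over all pairs of the 28 genes found in at least 10% of cells. These cells share 1 library, so the correlations are a description.

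**Figure D5:**
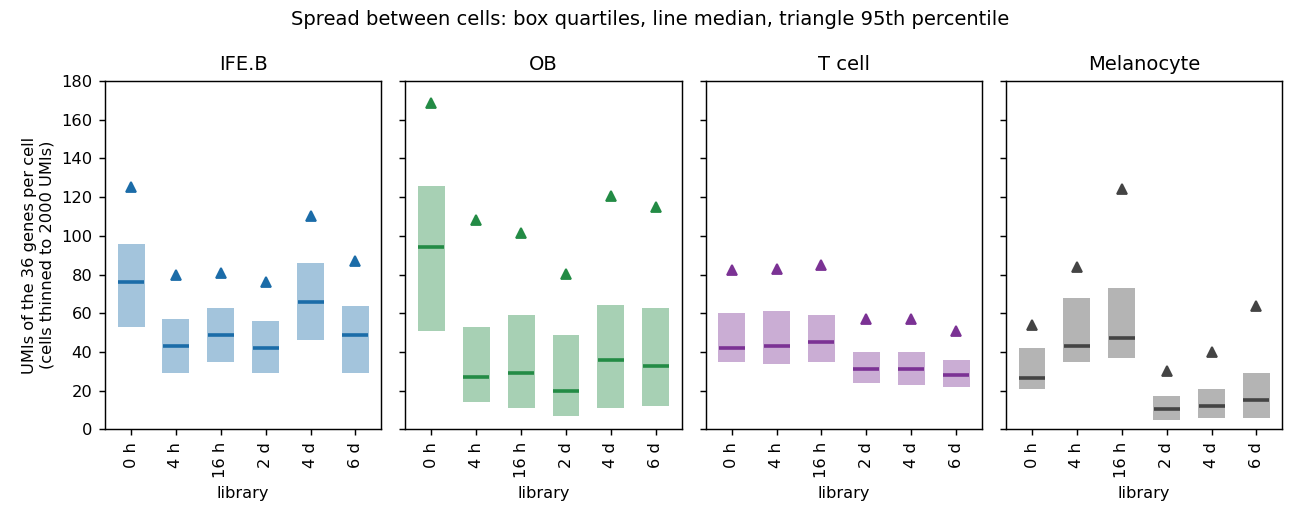
UMIs of the 36 genes per cell after thinning each cell to 2000 UMIs (y axis) in each library (x axis), with boxes from the lower to the upper quartile, a line at the median and a triangle at the 95th percentile. The OB median is 94 at 0 h and 20 to 36 later while its 95th percentile stays at 80.1 or above.

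Over the 78 sums of a cell type in a library, the genes whose log2 CPM followed Fos most closely were, outside the 36, Sirt1 (r = 0.761), Emp1 (0.719), Sertad1 (0.709), Mef2a (0.611) and Klf16 (0.602), among 12229 genes. Within the 36, Fosb (0.839), Socs3 (0.759), Zfp36 (0.727) and Jund (0.716) came nearest, and Fosl2 (-0.014), Egr3 (0.003) and Dusp4 (-0.532) did not follow Fos. Fosl1 followed another set, led by Dusp7 (0.899), Hbegf (0.899) and Sfn (0.896). The sums share libraries, so these values only order the genes.

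Of 47 other early and delayed response genes, a list of growth, stress and feedback genes outside the 36, those measured between OB and IFE.B numbered 45, and 6 were higher and 18 lower in OB (17.8% and 18.2% of all genes). From 0 h to 4 h 19 of 36 were lower in IFE.B (15.4%) and 2 higher (21.8%), Areg and Odc1. In OB 12 of 37 were lower (18.5%) and 8 higher (21.0%), the higher count being near the share of all genes. The 31 kinases and factors that act upstream, among them the MAP kinases and Srf, took 0.124% of IFE.B UMIs at 0 h and 0.151% at 4 h, and 0.11% and 0.181% of OB UMIs. In OB 5 of the 31 were higher and 7 lower than in IFE.B, near the same 17.8% and 18.2% of all genes. The immediate early genes and their longer list of companions were thus both lower at 4 h in IFE.B more often than all genes, while the upstream sum was higher there. All genes tested in that step also had a median log2 difference above 0, of 0.24, so the higher upstream sum is not particular to that list.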

How the data were processed

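The deposited matrices hold raw UMI counts per gene and barcode, which the authors made with Cell Ranger 6.1.2 on mm10 per the labels. Barcodes with 500 to 7000 genes and at most 10% mitochondrial UMIs were kept (55177 of 61031). Doublets were then removed by ranking Scrublet scores at 0.8% per 1000 barcodes (5203), since its own threshold called 0 to 677 per library, which left 49974 cells. Clusters came from Seurat 5.3.0 with reciprocal PCA across libraries (2000 variable genes, 30 components, resolution 0.2). The 36 genes, the companion, upstream and heat shock lists, 8 mitochondrial transcripts (135 genes in all) and cell cycle genes took no part in the clustering. Clusters were named by at least 3 markers, and a second cluster of the same name is marked 2.

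Counts were summed by cell type and library and given as CPM with exact 95% Poisson intervals. Such intervals, and the exact Clopper-Pearson intervals behind the shares of cells, cover counting error only. Shares used cells thinned to 2000 UMIs, which left out 3 to 39 OB, 34 to 389 T cell and 7 to 59 melanocyte cells per library. The depth was 72634390 to 112370376 UMIs per library. In the counts of 2-fold steps, a level under that of 3 counts was set to 3 counts, so such a gene could still be counted. Time courses (a spline with 3 degrees of freedom, at least 20 cells in each library) and cell type contrasts with library as a block were fitted over all genes with edgeR 4.0.16 (quasi-likelihood, Benjamini-Hochberg over all genes), and DESeq2 1.42.0 was an alternative. The scripts were tested on simulated data. Python 3.11.15, scanpy 1.11.5 and R 4.3.3 were used. Whether the mice of a library differed cannot be seen. The p-values of the contrasts rest on how the difference between cell types within a library varied over the libraries. Those of the time courses rest on the scatter of the libraries around the spline.

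The 36 genes and the lists were chosen with earlier results of these data known. Values in every library were given for genes with at least 50 CPM and a ratio of at least 4 between libraries in OB or IFE.B (at most 20) and for Fos, Jun, Egr1, Atf3 and Myc. For contrasts the 10 called genes with the largest change were eligible. Genes named beyond these rules, including those most like Fosl1, were chosen after their values were seen. Alternatives changed the time scale, normalization, count filter, block, clustering, doublets and libraries.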

Additional observations from a re-analysis of the deposited data

Results flagged for a closer look

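In 12 cases an immediate early gene was at least 2-fold higher in 1 cell type and at least 2-fold lower in another over the same step, with at least 50 CPM in 1 or both libraries and 10 UMIs per sum. Each time point had 1 library, so these differences were not tested. Opposite steps were not counted over all genes, so the 12 cases have no background count beside them. From 0 h to 4 h, 10.5% to 23.9% of all genes were higher and 7.29% to 21.7% lower in the cell types compared, so opposite steps need not be particular to these genes. From 0 h to 4 h melanocytes were higher in Fos (3.8-fold), Egr1 (5.19-fold), Fosb (2.15-fold), Btg2 (2.06-fold) and Nr4a1 (2.34-fold). In the same step Fos was at 0.364 of its 0 h level in OB, Egr1 at 0.365 and Nr4a1 at 0.307 in Langerhans cells, and Fosb at 0.38 and Btg2 at 0.279 in uHF.B. Langerhans cells were higher in Dusp1 (2.79-fold) and Klf6 (2.56-fold), while Dusp1 was at 0.322 in melanocytes and Klf6 at 0.381 in uHF.B.

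From 4 h to 16 h Egr2 (2.42-fold) and Socs3 (2.01-fold) were higher in uHF.B, with Egr2 at 0.48 in melanocytes and Socs3 at 0.363 in Langerhans cells, and Nr4a2 was 5.26-fold higher in Langerhans cells and at 0.343 in OB. From 16 h to 2 d Ier3 was 2.38-fold higher in IFE.B and at 0.4 in melanocytes. From 4 d to 6 d Egr1 was 2.7-fold higher in melanocytes and at 0.409 in Langerhans cells. The 0 h sums rest on 29 melanocytes and 40 Langerhans cells.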

How the results depend on the processing

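No paired analysis was possible between time points because each had 1 library, and between cell types library was the block. The number of immediate early genes called over the time course stayed within 1.5 times its value in 90 of 132 alternatives. With log2(hours + 1) it went to 12 in the Krt28/Col14a1 cluster (6 with hours), 20 in melanocytes (11), 19 in OB (0), 14 in OB 2 (2) and 2 in uHF.SB (0). With the rank of the time point it was 16, 20, 7 and 6 in the Krt28/Col14a1 cluster, melanocytes, OB and OB 2, and with a linear trend 0, 5 and 1 in the Krt28/Col14a1 cluster, melanocytes and OB 2. With at least 10 counts in every sum it was 14, 4 and 5 in the same clusters. With DESeq2 it was 20 in the Krt28/Col14a1 cluster, 1 in OB, 7 in OB 2, 1 in uHF.B and 4 in uHF.SB. Leaving out 1 library, which leaves 1 residual degree of freedom, gave 0 to 0 in IFE.B and IFE.SB, 0 to 2 in IFE.SB 2 and T cells, 4 to 30 in the Krt28/Col14a1 cluster, 0 to 7 in Langerhans cells and OB, 7 to 15 in melanocytes, 4 to 17 in OB 2, 0 to 6 in uHF.B and 0 to 1 in uHF.SB. Between cell types 103 of 112 alternatives stayed within 1.5 times. Without the library block the counts were 2, 2, 4, 0 and 2 in place of 22, 17, 20, 12 and 20 (in the order IFE.SB with IFE.B, uHF.SB with uHF.B, OB with IFE.B, OB with uHF.B, uHF.B with IFE.B). Clustering each library on its own gave 7 for OB with uHF.B, and at least 10 counts in every sum gave 18, 13 and 10 for the T cell, Langerhans and melanocyte contrasts (28, 21 and 23). Leaving out 1 library gave 17 to 22, 14 to 23, 15 to 21, 9 to 13 and 15 to 23 in that order, then 27 to 28, 19 to 23 and 18 to 30. Over all genes, OB with IFE.B had 2171 calls without the block and 4617 with it, and melanocytes 469 with the 10 count filter and 4942 without. With the 16 h library in place of 4 h, 9 genes were lower in IFE.B and not 14. The summed level at 4 h over 0 h was 0.583 in IFE.B and 0.575 (at most 5% mitochondrial UMIs), 0.628 (resolution 0.4), 0.578 (doublets kept), 0.587 (each library clustered on its own) and 0.6 (without Fos, Jun and Atf3). In uHF.B it was 0.384, and 0.389, 0.401, 0.37 and 0.456 with at most 5% mitochondrial UMIs, doublets kept, own clustering and without the 3 genes. In OB it was 0.436, and 0.42, 0.571, 0.448, 0.462, 0.498 and 0.501 with at most 5% mitochondrial UMIs, resolution 0.4, clusters of 1 name merged, doublets kept, own clustering and without the 3 genes. The resolution, merging, doublet (for sums and steps) and 16 h alternatives were chosen after seeing the data. At resolution 0.4 the name OB went to a cluster of other cells, and in the one that held 99.8% of the OB cells the summed share was 4.6% at 0 h and 2.01% at 4 h. The cause of the other shifts was not tested. Each ratio of the summed level at 4 h over 0 h given here was under 1. A direction did reverse at resolution 0.4 from 4 d to 6 d. In the Krt28-led cells the summed share went from 0.421% to 0.349%, while 20 of 30 genes were higher in the whole Krt28/Col14a1 cluster. Depth limits melanocytes and Langerhans cells most.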

Other observations

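Sebaceous gland cells (SG), which make skin lipids, had low summed shares of the 36 genes, at 0.744%, 0.545%, 0.625%, 0.684% and 0.711% of UMIs from 4 h to 6 d, and only 13 of them were found at 0 h. OB 2 had 5.11% at 0 h and 2.73%, 2.72%, 1.66%, 1.34% and 1.53% in the later libraries. In suprabasal cells the shares were 3.23%, 2.11%, 2.03%, 1.35%, 1.75% and 1.28% in uHF.SB and 2.71%, 2.22%, 2.31%, 1.85%, 2.76% and 1.58% in IFE.SB, so that IFE.SB reached its 0 h level again at 4 d. IFE.SB 2 had 1.8%, 2.14%, 1.91%, 1.71%, 2.21% and 1.23%, and so was not highest at 0 h.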
